A study of Mus musculus with 6 samples.

Results

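The genes described here are those that the deposited gene table assigns to the KEGG pathway Protein processing in endoplasmic reticulum. The pathway holds 165 of the 15953 genes in the table. Leaving out Derl1, Derl2, Derl3, Hspa5, Herpud1, Xbp1, Atf4, Ddit3 and Nfe2l2 left 156 members. The rule uses annotation alone, but it was set with earlier results of these data known. Liver RNA of C57BL/6 mice was sequenced, with 3 wild type samples and 3 samples whose genotype is Cgref1 knockout, each set labelled as biological replicates 1 to 3. The labels give no age, sex, treatment, deleted exon or tissue specificity of the knockout, and nothing says how the replicates were raised, so p-values measure only the spread between these samples. The labels name hepatocytes as the cell type, whereas the series design speaks of liver tissue.

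Secreted and membrane proteins, which the hepatocyte makes in large amounts, enter the endoplasmic reticulum (ER) through the Sec61 channel. There they receive N-linked sugars, fold with the help of chaperones and disulphide isomerases, and leave in vesicles with a COPII coat. Proteins that do not fold are drawn back to the cytosol, tagged with ubiquitin and destroyed, a process called ER-associated degradation. The sensors IRE1, PERK and ATF6 watch the load of unfolded protein and raise the folding capacity in the unfolded protein response.

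Library totals ran from 17627734 to 18366443 estimated counts, and the members took 1.43% to 1.59% of them. Cgref1 itself had 7, 7 and 19 counts in wild type and 7, 12 and 10 counts in the libraries labelled knockout, so the RNA counts did not show the loss of the gene and each direction below is that of the labels. All 12 hepatocyte markers checked were present, at a summed level of 90554 to 108398 TPM (a level scaled for gene length and library) in wild type, against 82617 to 107039 TPM in knockout-labelled libraries. The summed Kupffer cell markers ran from 282 to 334 TPM in wild type and 335 to 343 TPM in knockout-labelled libraries, with 10 of 10 log2 fold changes positive. The summed stellate cell markers ran from 151 to 207 TPM and from 119 to 140 TPM, with 1 of 10 positive. The 13 intestinal epithelium markers, of which 3 passed the low-count filter, ran from 191 to 273 TPM and from 148 to 181 TPM. Most of these sums came from Fabp2 (96.8 to 211 TPM over all libraries) and Anpep (45.3 to 58.3 TPM). Reg3b, Reg3g, Muc13, Sis and Krt20 were at 0 TPM in every knockout-labelled library and at most 0.25 TPM in wild type replicate 2. Plasma and B cell markers, 9 in the table, ran from 8.31 to 10.4 TPM and from 6.26 to 11.5 TPM. Sinusoidal endothelial markers (10 genes) ran from 209.7 to 245 TPM and from 206 to 235 TPM, and 6 exocrine pancreas markers from 23.7 to 41.8 TPM and from 34.4 to 38.0 TPM. Most of the pancreas sum came from Cela1 (22.4 to 40.6 TPM over all libraries). No marker in the table was at 0 in all 6 libraries. The part of the Kupffer, stellate and intestinal differences in the results below was not tested, and in bulk tissue fewer cells of a type and less RNA per cell cannot be told apart.

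As a whole the pathway was well expressed in liver. The median member stood at 23.5 TPM, against 6.98 TPM for the median of all genes tested; 21 members reached 100 TPM and 12 stayed under 1 TPM. Levels differed by the role of the protein. The channel and signal peptide genes had the highest median, 63.6 TPM, followed by the lumenal chaperones at 45.0 TPM, the oligosaccharyltransferase subunits at 44.1 TPM and the glycan-trimming genes at 33 TPM. Stress sensors and their signalling partners were the lowest named group, at 6.06 TPM. The most abundant single members were Hspa8, a cytosolic chaperone of the HSP70 family, at a mean of 821 TPM, and P4hb, the main protein disulphide isomerase, at 631 TPM.

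**Figure D1:**
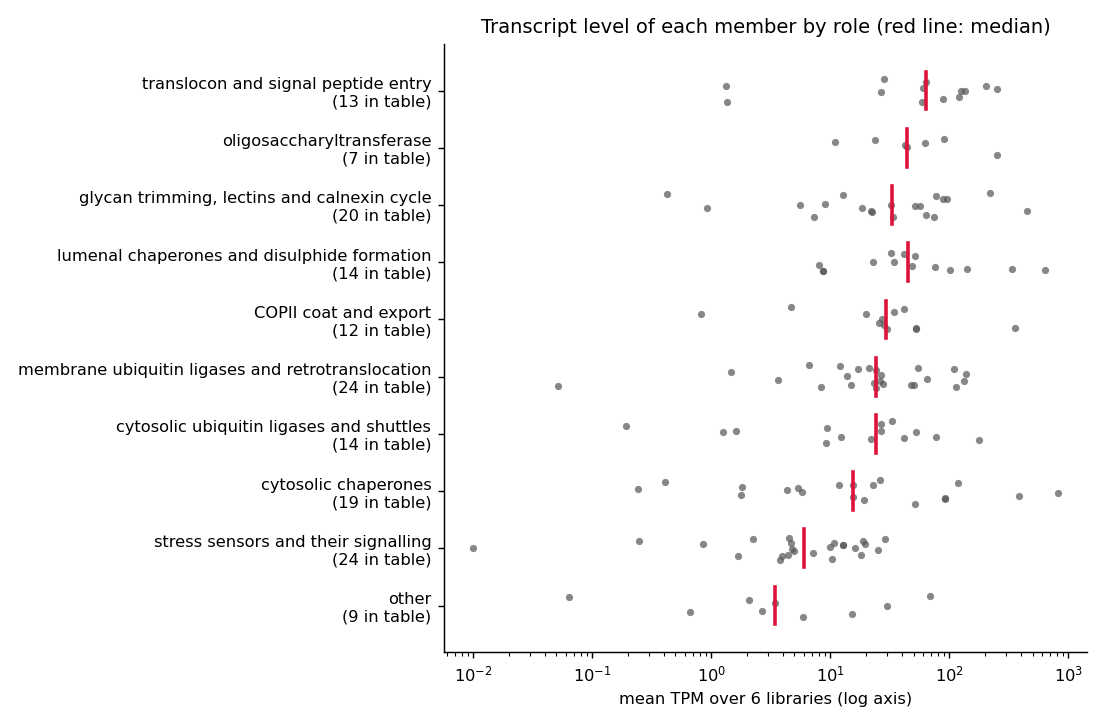
Each point is 1 member, placed at its mean TPM over the 6 libraries on a log axis and grouped by role; the red line is the group's median. Channel genes have the highest median (63.6 TPM) and stress sensors the lowest of the named roles (6.06 TPM).

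The comparison asked how these genes differed between the knockout-labelled and wild type livers. No member passed the threshold of 0.05 by the edgeR quasi-likelihood test after adjustment over all genes by Benjamini and Hochberg (0 of 151 tested, smallest adjusted p 0.85; 0.00831% of all genes passed). DESeq2, limma-voom and limma-trend also called 0 members, and the authors' deposited table gives 0 of 156 members a q under 0.05, with a smallest q of 0.456. Many members nevertheless leaned the same way by small amounts. Of the 151 tested, 103 had a positive log2 fold change and 48 a negative one, which is 68.2% positive against 49.5% of all genes tested. The median log2 fold change was 0.058, against -0.0022 for all genes. At an unadjusted p under 0.05 stood 13 members with positive values (8.61%, against 2.95% of all genes) and 3 with negative values (1.99%, against 2.2%), together 10.6% against 5.15%. Without knockout-labelled replicate 2 these counts were 7 higher and 1 lower (1.94% and 1.57% of all genes), and without knockout-labelled replicate 3 they were 7 and 0 (1.72% and 1.47%). In 27 members every knockout-labelled value lay above every wild type value (17.9%, against 6.19% of all genes), and in 8 every value lay below (5.3%, against 4.63%). Both directions together came to 10.8% of all genes. The differences were small: 1 tested member, Sec31b, went beyond 0.5 on the log2 scale, and for 122 members the 95% confidence interval lay within a fold of 1.5 either way.

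These directions depend on how the libraries are scaled. TMM, the main scaling, sets the typical gene near 0. With library totals alone the median of all genes shifted to -0.084 and that of the members to -0.025, and the counts at an unadjusted p under 0.05 became 2 higher (1.25% of all genes) and 12 lower (6.04% of all genes). On log2(TPM + 1) the medians were -0.11 and -0.071, with 0 members higher (0.939% of all genes) and 12 lower (8.7% of all genes) by limma-trend. Groups that did not overlap in TPM were found for 1 member higher and 24 lower (1.44% and 15.3% of all genes). The 1 higher member was Sec24a, so other levels called wholly above wild type below are so in CPM and not in TPM. The members' median stayed above the median of all genes by 0.060 with TMM, 0.059 with library totals and 0.034 with TPM. Every fold change below is therefore relative to the typical gene in the TMM-scaled libraries, and levels are CPM (counts scaled to library size by TMM) unless TPM is named.

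**Figure D2:**
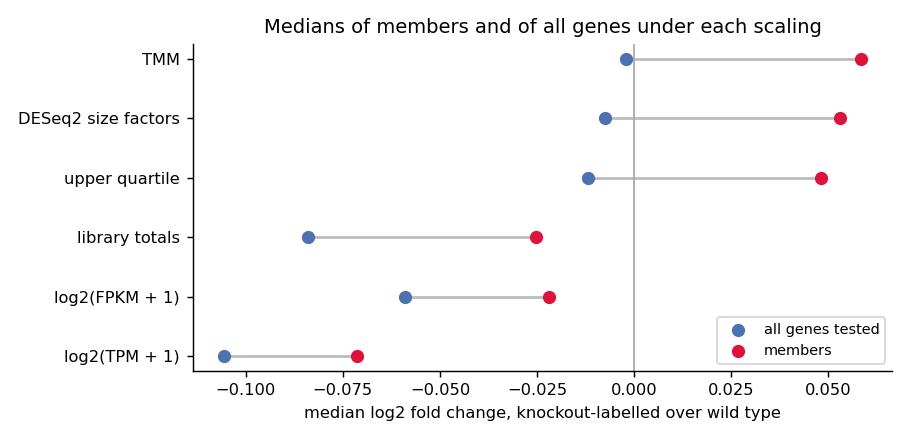
Median log2 fold change of all genes tested (blue) and of the members (red) under 6 scalings, on 1 axis. Both medians shift to the left with library totals, FPKM and TPM, while the red point stays to the right of the blue one, by 0.060 with TMM and 0.034 with TPM.

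A few members share a promoter element. The ER stress response element (ERSE), bound by the factor NF-Y at one end and by ATF6 or XBP1 at the other, was searched as CCAAT, any 9 bases, then CCACG on both strands of RefSeq windows (GRCm38.p6) from 250 bases before to 50 after each start. A window was at hand for 133 of the 156 members. ERSE was found in 7 of the 133 (5.26%), against 37 of 27025 genes overall (0.137%). The related ERSE-II, searched as ATTGG, any 1 base, then CCACG, was found in 1 member (0.752%), against 12 genes overall (0.0444%). The sites are shown because the pathway rule did not use sequence. Each is given 5′ to 3′ on the gene's strand, with the element in capitals; in Calr, Ero1lb and the first Hsp90b1 site the element runs in the reverse direction.
Calr, chr8:84847055-84847113, minus strand: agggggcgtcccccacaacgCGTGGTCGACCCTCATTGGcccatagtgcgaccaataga
Canx, chr11:50325780-50325838, minus strand: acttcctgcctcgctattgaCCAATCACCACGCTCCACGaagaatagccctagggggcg
Dnajc3, chr14:118937807-118937865, plus strand: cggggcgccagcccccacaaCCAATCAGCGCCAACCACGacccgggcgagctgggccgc
Ero1lb, chr13:12565662-12565720, plus strand: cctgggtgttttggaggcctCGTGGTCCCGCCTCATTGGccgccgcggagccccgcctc
Hsp90b1, chr10:86705513-86705571, minus strand: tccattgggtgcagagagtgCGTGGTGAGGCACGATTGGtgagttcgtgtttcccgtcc
Hsp90b1, chr10:86705618-86705676, minus strand: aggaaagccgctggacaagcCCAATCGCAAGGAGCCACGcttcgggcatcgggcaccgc
Pdia6, chr12:17266471-17266529, plus strand: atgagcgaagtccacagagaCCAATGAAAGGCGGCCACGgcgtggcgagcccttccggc
Syvn1, chr19:6046512-6046570, plus strand: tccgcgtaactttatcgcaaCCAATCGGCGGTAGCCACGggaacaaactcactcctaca
Dnajb11 (ERSE-II), chr16:22857832-22857862, plus strand: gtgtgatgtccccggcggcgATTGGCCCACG

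The 7 ERSE genes encode calreticulin and calnexin (Calr, Canx), the HSP40 cochaperone P58IPK (Dnajc3), an oxidase that renews disulphide isomerases (Ero1lb), the ER form of HSP90 (Hsp90b1), a disulphide isomerase (Pdia6) and the ubiquitin ligase HRD1 (Syvn1). All 7 had positive log2 fold changes, from 0.080 (Canx) to 0.43 (Syvn1), with a median of 0.18. Among tested members 68.2% were positive, and among all genes 49.5%. In 2 of the 7 all knockout-labelled values lay above wild type (6.19% of all genes). Dnajc3, Ero1lb, Hsp90b1 and Pdia6 also belong to the lumenal chaperone group below, and the part of element and role was not tested. Dnajb11, an HSP40 cochaperone of the lumen, had 0.21. The ERSE sites lay between positions -212 and -26 relative to the start, and the Syvn1 site (-44 to -26) was the nearest. On log2(TPM + 1) 5 of the 7 were positive, against 31.1% of tested members and 22.5% of all genes. Canx and Hsp90b1 turned to -0.053 and -0.034. A match is a run of letters and was not shown to be bound. The shorter site TGACGTGG, which contains CCACG in reverse, was found in 6 members (4.51%, against 0.714% overall), namely Mapk8, Sec23a, Sec24d, Txndc5, Ube2j1 and Vcp. Their log2 fold changes ran from -0.047 to 0.20, with a median of 0.016.

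**Figure D3:**
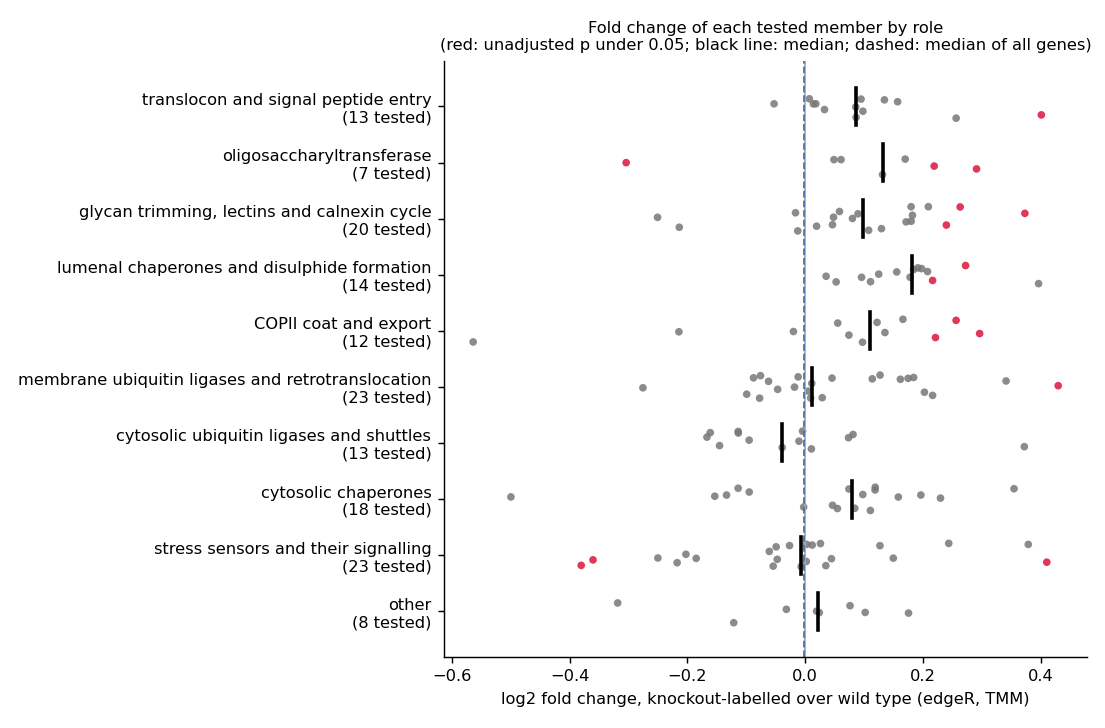
Each point is 1 tested member at its edgeR log2 fold change, knockout-labelled over wild type, in rows by role; red points have an unadjusted p under 0.05, black lines are medians and the dashed line is the median of all genes. The lumenal chaperone row lies wholly to the right of 0 (14 of 14), whereas the ubiquitin shuttle and stress sensor rows straddle it.

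Genes of the entry step at the Sec61 channel leaned positive as a group. Sec61a1, on chromosome 6 (88503605 to 88518800, GRCm38), encodes the pore-forming subunit of the channel and had the smallest p of all members. Its level was 96.7, 106 and 127 CPM in wild type and 140.3, 139 and 156 CPM in the knockout-labelled ones, each in the order of replicates 1 to 3. Every knockout-labelled CPM value was above the wild type range. In TPM the groups overlapped, at 46.46 to 62.95 TPM in wild type and 59.55 to 69.56 TPM in knockout-labelled libraries. The means were 109.7 ± 15.3 and 144.9 ± 9.31 CPM (SD, n = 3), a log2 fold change of 0.40 (SE 0.12, 95% interval 0.14 to 0.66) with an edgeR adjusted p of 0.85. The small subunit Sec61b, at 53.0, 67.2 and 76.4 CPM against 72.5, 75.5 and 86.9 CPM, had a log2 fold change of 0.26, but its groups overlapped. Of the 13 tested genes of this group, 12 were positive, with a median of 0.087 and 1 at an unadjusted p under 0.05 (7.69%, against 2.95% of all genes). The 4 subunits of the translocon-associated TRAP complex, Ssr1 to Ssr4, had 0.16, 0.014, 0.087 and 0.095. The ribosome-binding Rrbp1 had 0.13, and the sheet-shaping Ckap4, at 1.35 TPM, had -0.053. Tram1, a further channel partner kept outside the role lists, had 0.18.

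Oligosaccharyltransferase moves the ready-made sugar tree onto asparagines of the entering chain. Of its 7 genes 6 were positive, with a median of 0.13, and 3 stood at an unadjusted p under 0.05 (42.9%, against 5.15% of all genes in either direction). Ddost, a core subunit, was at 78.7, 82.4 and 81.6 CPM in wild type and 92.0, 94.8 and 110.0 CPM in knockout-labelled libraries. Its means were 80.9 ± 1.92 and 98.9 ± 9.68 CPM (SD, n = 3), a log2 fold change of 0.29 (SE 0.10, edgeR adjusted p 0.903). Rpn2, the ribophorin II gene, was at 143, 151 and 145 CPM and at 179, 167 and 165 CPM, with a log2 fold change of 0.22 (SE 0.087, edgeR adjusted p 0.928). In both genes the groups did not overlap, as also in Rpn1 (0.17) and Dad1 (0.13). These 4 genes were 57.1% of the group, against 6.19% of all genes wholly higher. The catalytic subunits Stt3a and Stt3b had 0.061 and 0.049 and overlapped. Tusc3, an oxidoreductase subunit that joins the complex built on Stt3b, lay the other way. Its values were 13.9, 13.1 and 11.3 CPM against 10.8, 10.6 and 9.58 CPM, so that all knockout-labelled values were below the wild type ones. The log2 fold change was -0.30 (SE 0.13, edgeR adjusted p 0.962).

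Glucosidases and lectins read the sugar tree and hold the glycoprotein in the calnexin cycle until it is folded. Of 20 genes in this group 16 were positive, with a median of 0.099, and 8 had knockout-labelled values wholly above wild type (40%, against 6.19% of all genes). Edem2, a mannosidase-like protein that marks misfolded glycoproteins for degradation, was at 40.2, 51.2 and 42.3 CPM in wild type and 54.8, 57.7 and 60.6 CPM in knockout-labelled libraries. The log2 fold change was 0.37 (SE 0.11, 95% interval 0.13 to 0.62, edgeR adjusted p 0.85). Uggt1, the folding sensor that returns unfinished glycoproteins to calnexin, was at 49.7, 54.3 and 52.2 CPM and at 63.1, 65.6 and 58.8 CPM (log2 fold change 0.26, SE 0.090, edgeR adjusted p 0.903). Prkcsh, the beta subunit of glucosidase II, had 0.24 (SE 0.10), at 65.9 to 79.3 CPM and 79.6 to 91.8 CPM. Its catalytic partner Ganab had 0.058. The most abundant genes of the cycle, Calr at 449 TPM and Pdia3 at 221 TPM, had 0.18 each, without overlap of the groups. Calr, the lumenal lectin, was at 564, 514 and 592 CPM and at 634, 629.8 and 628 CPM. The cargo receptors Lman1 and Lman2 had 0.13 and 0.21. The 4 negative genes were Uggt2 (-0.25), Man1c1 (-0.21), Man1b1 (-0.016) and Man1a2 (-0.013), the first pair at under 1 TPM.

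Chaperones and disulphide enzymes of the lumen were the only role group without a negative log2 fold change under TMM. All 14 had positive log2 fold changes with TMM scaling, from 0.036 (Ero1l) to 0.40 (Hyou1), with a median of 0.18; with log2(TPM + 1) 9 of the 14 were positive. In 3 of them the groups did not overlap (21.4%, against 6.19% of all genes) and 2 stood at an unadjusted p under 0.05 (14.3%, against 2.95%). P4hb was at 1068, 994 and 1029 CPM in wild type and 1211, 1149 and 1232 CPM in knockout-labelled libraries. The means of 1031 ± 37.1 and 1197 ± 43.0 CPM (SD, n = 3) gave a log2 fold change of 0.22 (SE 0.096, edgeR adjusted p 0.962). Dnajc10, a disulphide reductase with a J domain, was at 20.3, 21.6 and 21.2 CPM and at 26.4, 26.2 and 23.7 CPM (log2 fold change 0.27, SE 0.10, edgeR adjusted p 0.918). Among the abundant chaperones Hsp90b1, at 338 TPM, had 0.096 and overlapped, with 665, 552 and 673 CPM against 691, 677 and 652 CPM. Hyou1, a large HSP70-like chaperone, varied most within wild type relative to its mean, at 59.5, 79.5 and 130.4 CPM. It stood at 119, 111 and 125 CPM in knockout-labelled libraries. Wild type replicate 3 was the highest of all 6, and the interval of the log2 fold change ran from -0.27 to 1.07.

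**Figure D4:**
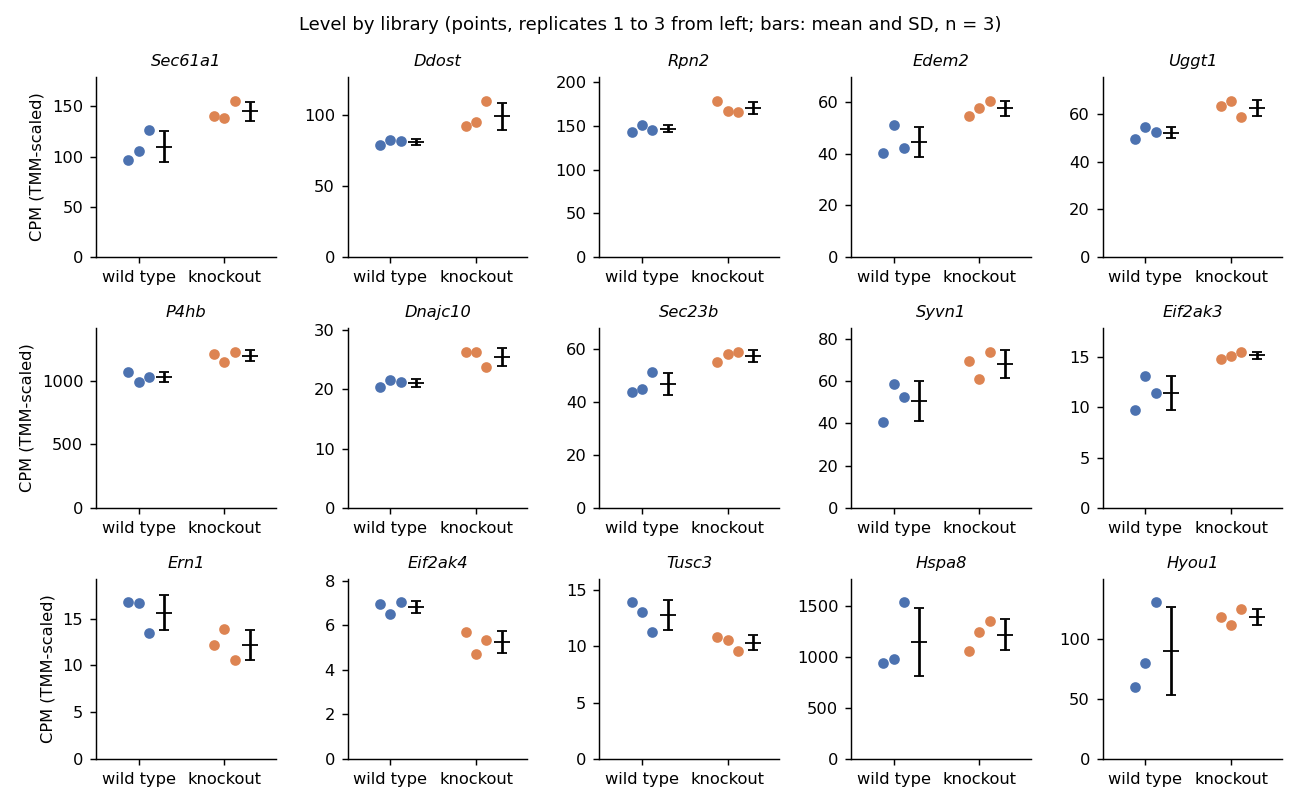
CPM of 15 members in each library, from 0, with wild type in blue and knockout-labelled libraries in orange; bars give the mean and SD of 3 libraries. Sec61a1 to Eif2ak3 have knockout-labelled points above the wild type points, Eif2ak4 and Tusc3 have them below, and Ern1, Hspa8 and Hyou1 overlap. In TPM no gene from Sec61a1 to Eif2ak3 lies wholly above wild type, and Ern1 lies wholly below.

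Vesicles with a COPII coat carry folded cargo to the Golgi. Of the 12 coat genes 9 were positive, with a median of 0.11, and 3 stood at an unadjusted p under 0.05, all of them positive (25%, against 2.95% of all genes). Sec23b, an inner coat subunit, was at 43.9, 45.0 and 51.4 CPM in wild type and 55.0, 58.2 and 59.0 CPM in knockout-labelled libraries, a log2 fold change of 0.30 (SE 0.096, edgeR adjusted p 0.903). Its groups did not overlap, whereas its paralog Sec23a had -0.020 and overlapped. Sec31a, the main outer coat partner, had 0.12 with TMM and -0.0043 on log2(TPM + 1). Sec13 of the outer coat had 0.22, with 37.7 to 43.6 CPM and 45.4 to 50.2 CPM. Preb, which loads the GTPase Sar1 and lies close to Cgref1 on chromosome 5 (30951667 to 30960356), had 0.26, with 69.6 to 84.3 CPM and 86.2 to 105.9 CPM. Sec13 and Preb were picked with their values in view. The 2 genes with the lowest values were Sec31b and Sar1b. Sec31b, at 0.823 TPM, was at 2.10, 3.19 and 2.84 CPM and at 1.87, 2.03 and 1.6 CPM (log2 fold change -0.56, SE 0.25, edgeR adjusted p 0.962). Sar1b, the isoform linked to chylomicron and lipoprotein export, had -0.21 (SE 0.14), with 374.8 CPM in wild type replicate 1 and 248 to 296 CPM in all other libraries; it was 0.075 with wild type replicate 2 as the only control.

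Ligases of the ER membrane and the machinery that pulls proteins back to the cytosol had a median near that of all genes. Of 23 tested genes 14 were positive and 9 negative, with a median of 0.011. Relative to all genes the median was 0.013, and with 1 library left out it ran from 0.012 without knockout-labelled replicate 2 to 0.059 without wild type replicate 1. Syvn1, the HRD1 ligase, stood apart from its group at 40.5, 58.8 and 52.5 CPM in wild type and 69.3, 61.2 and 74.0 CPM in knockout-labelled libraries. The log2 fold change was 0.43 (SE 0.14, 95% interval 0.12 to 0.74, edgeR adjusted p 0.9), the largest positive value of any member. Its partner Sel1l, which stabilises HRD1, had 0.11 and overlapped, with 106 to 123 CPM and 115 to 141 CPM. Syvn1 shares 89 bases with Mrpl49 on the opposite strand, and no source used here says whether reads were counted by strand. This limit is not particular to Syvn1. By the deposited coordinates and strands, 75 members overlap another gene, 41 of them a gene on the opposite strand. Vcp, the p97 motor that extracts the tagged protein, had -0.047 (0.056 without wild type replicate 1), and its cofactors Nploc4 and Ufd1 had 0.20 and -0.012. Ube2d3, a ubiquitin-conjugating enzyme at 132 TPM, had -0.099. Svip, a small inhibitor of this route, had -0.28 (SE 0.16), with 13.3 to 18.5 CPM and 11 to 14 CPM.

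Cytosolic ligases and ubiquitin shuttles, which sort tagged proteins for the proteasome, had a median of -0.039, from 4 positive and 9 negative genes; relative to all genes the median was -0.037, and 0.0052 without wild type replicate 1. Ubqln4, a proteasome shuttle, was at 31.4, 28.7 and 31.97 CPM in wild type and 28.6, 25.4 and 28.3 CPM in knockout-labelled libraries, without overlap (log2 fold change -0.16, SE 0.10, edgeR adjusted p 0.984). Skp1a and Rad23b, the most abundant of the group at 178 and 76.8 TPM, had -0.039 and -0.11 and overlapped; without wild type replicate 1, which held their highest values, they had 0.0022 and 0.028. By edgeR 0 of the 13 passed after adjustment and 0 at an unadjusted p under 0.05.

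Cytosolic chaperones varied by library more than by group. Hspa8 was at 933 and 979 CPM in wild type replicates 1 and 2 but 1531 CPM in wild type replicate 3, with 1055, 1243 and 1353 CPM in the knockout-labelled libraries. The log2 fold change was 0.084 (SE 0.19), and it was -0.049 without wild type replicate 1. Hsph1, the HSP110 nucleotide exchange factor, had 21.9, 29.6 and 45.7 CPM against 29.4, 45.3 and 49.5 CPM. The median over the group's members, taken as log2 CPM less each gene's mean, was -0.11, -0.079 and 0.23 for wild type replicates 1, 2 and 3, against -0.13, 0.027 and 0.15 for the knockout-labelled ones. Wild type replicate 3 and knockout-labelled replicate 3 were thus high, and replicate 1 of each group was low. In the same measure the lumenal chaperones stood at -0.17, -0.12 and 0.045 and at 0.059, 0.11 and 0.11, and the oligosaccharyltransferase genes at -0.077, -0.12 and -0.054 and at 0.048, 0.050 and 0.064. In these 2 groups, as in the channel, glycan-trimming and COPII groups, the knockout-labelled libraries lay above all wild type ones. For the lumenal chaperones the margin over wild type replicate 3 was small. Hsp90ab1, the constitutive cytosolic HSP90 at 384 TPM, had 0.047 with TMM and -0.088 on log2(TPM + 1). Bag2, a cochaperone that inhibits the ligase CHIP, had -0.50 (SE 0.26) at 1.82 TPM, without overlap of the groups. Of the 18 tested genes 12 were positive, with a median of 0.079. Relative to all genes the median was 0.081, and with 1 library left out it ran from 0.0030 without wild type replicate 2 to 0.18 without wild type replicate 3. Hspa1a and Hspa1b are near-identical copies whose single values are uncertain.

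**Figure D5:**
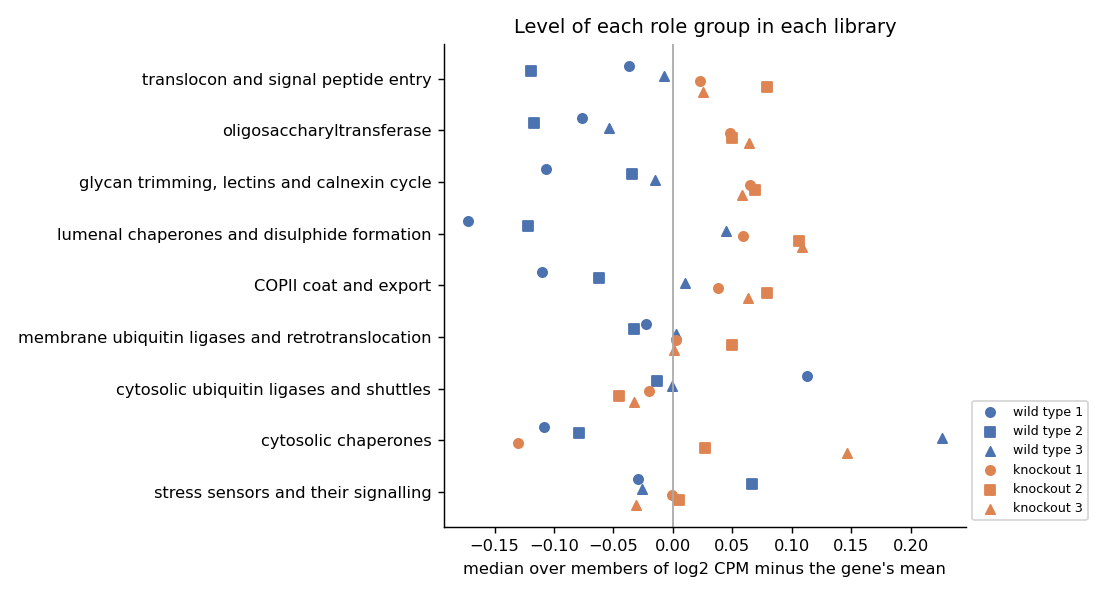
For each role and library, the median over members of log2 CPM minus the gene's mean over the 6 libraries; blue marks are wild type, orange marks knockout-labelled, and shapes give the replicate. Orange lies to the right of blue in the upper 5 rows, while in the cytosolic chaperone row the colours are mixed and wild type replicate 3 is the highest (0.23).

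The stress sensors and their signalling partners lay on both sides of 0. Of 23 tested genes 11 were positive and 12 negative, with a median of -0.0068, whose sign changed with the library left out. Eif2ak3, which encodes PERK, was at 9.71, 13.1 and 11.4 CPM in wild type and 14.8, 15.1 and 15.5 CPM in knockout-labelled libraries, without overlap. The log2 fold change was 0.41 (SE 0.14, 95% interval 0.10 to 0.72, edgeR adjusted p 0.903). Ern1, which encodes IRE1, was at 16.7, 16.7 and 13.5 CPM and at 12.1, 13.8 and 10.6 CPM. Its log2 fold change was -0.36 (SE 0.15, edgeR adjusted p 0.935) and the groups overlapped in 1 knockout-labelled value. In TPM they did not overlap, at 5.05 to 6.23 TPM in wild type and 3.57 to 4.47 TPM in knockout-labelled libraries. In TPM 15.3% of all genes were wholly lower. The third sensor, Atf6, had 0.035, with 61.4 to 73.5 CPM and 64.1 to 72 CPM. The proteases that cut ATF6, Mbtps1 and Mbtps2, had 0.045 and -0.054. Wfs1, the wolframin gene, had 0.38 with overlapping groups. Ppp1r15a, the GADD34 phosphatase subunit that ends PERK signalling, had -0.061. Of the kinase cascade downstream of IRE1, Traf2, Mapk8 and Mapk9 had 0.0019, 0.0025 and -0.0068, and Map3k5 had 0.24.

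PERK is 1 of the 4 kinases that phosphorylate the initiation factor eIF2, whose alpha subunit is encoded by Eif2s1. The shares of the 4 in their summed TPM do not depend on the scaling of a library. Eif2ak1 took 71.6% ± 1.499 of the sum in wild type and 71.8% ± 0.307 in knockout-labelled libraries (SD, n = 3). Eif2ak3 took 10.1%, 11.8% and 12% in wild type, then 13.5%, 14.6% and 14.4% in knockout-labelled libraries. Eif2ak4, the amino acid sensor GCN2, took 5.46%, 4.80% and 6.01% and then 4.41%, 3.78% and 4.09%. Eif2ak2, the sensor of double-stranded RNA, took 13.0%, 10.2% and 11.8% and then 10.1%, 10.2% and 9.65%. The PERK share was thus higher, and the GCN2 and Eif2ak2 shares lower, in every knockout-labelled library than in any wild type one, although the nearest Eif2ak2 values were equal to 3 digits. On the CPM scale Eif2ak4 had -0.38 (SE 0.16, edgeR adjusted p 0.937) and Eif2ak2 -0.22 (SE 0.14, edgeR adjusted p 0.984). Eif2s1 itself had -0.047.

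Other paralogs could be compared in the same way. Sec23b took 42.1%, 44.7% and 46.6% of the Sec23 sum in wild type, then 48.3%, 49.4% and 52.3% in knockout-labelled libraries. Edem2 took 43.1%, 46.7% and 39.4% of the Edem sum and then 47.8%, 47.3% and 48.7%. The shares of Sec24a, Sec31a and Ube2d2a were also higher without overlap, and those of Sec23a, Sec31b and Ube2d3 lower. Over all 14 families, the eIF2 kinases included, 6 of 37 shares were wholly higher and 5 wholly lower, and the rest overlapped. Shares in families outside the pathway were not computed, so these counts have no background. Sec24a took a mean of 24.4% in wild type and 26.1% in knockout-labelled libraries, and Ube2d2a 25.9% and 27.3%. In several other families 1 form dominated in both groups. Uggt1 took 94.6% ± 1.49 and 96.3% ± 0.479 of its pair, Sar1b 90.1% ± 2.17 and 88.3% ± 1.57, Sec61a1 97.5% ± 0.597 and 98.1% ± 0.332, and Ero1lb 71.5% ± 1.83 and 73.1% ± 2.20 (SD, n = 3 for each). The families were chosen after values were seen, shares within a family are tied to each other, and an exact permutation test of 3 against 3 libraries cannot go below a two-sided p of 0.1.

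The 9 genes left out of the set crossed these results in part. Derl3, the derlin with the largest value, had 1.64 (SE 0.29), and Hspa5, the lumenal HSP70 BiP, had 0.25 (SE 0.15). The other derlins, Derl1 and Derl2, had 0.13 and -0.15. Herpud1, Ddit3 and Xbp1 had 0.31, 0.18 and 0.084, Atf4 -0.0060 and Nfe2l2 -0.30. By edgeR 0 of the 9 passed after adjustment (0.00831% of all genes). At an unadjusted p under 0.05 stood 1 of the 9, Derl3 (11.1%, against 5.15% of all genes). Wild type replicates 1 and 3 held the most intestinal transcripts (Reg3b had 44, 0 and 32 counts in wild type and 0 in the other 3 libraries). Leaving out both left 1 wild type library against 3, so the spread came from the knockout-labelled libraries and the lone wild type library was assumed to vary like them. In that setting 8 members were higher (1.25% of all genes) and 2 lower (0.989% of all genes) at an unadjusted p under 0.05, and edgeR called 0 members.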

How the data were processed

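RNA of 6 mouse liver samples was enriched for messenger RNA, ligated to bubble adaptors and sequenced as circular DNA, per the labels' protocols. HISAT, Bowtie2, RSEM and DESeq2 are named in the submitters' processing notes, without versions; no source used here names the build or strandedness. The authors deposited expected counts per gene, not normalized, and, per the file headers, FPKM and TPM values. The authors' deposited table also gives a log2 fold change, a p-value and a q-value from DESeq2. The 15 columns of group means and single-library comparisons were not used. All 156 members matched a RefSeq gene (GRCm38.p6) by ID on the same chromosome, 86 with an equal start.

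Expected counts were rounded. Genes were filtered with filterByExpr (minimum count 10), which kept 12033 genes and 151 members, the other 5 having at most 43 counts in all. Libraries were scaled by TMM and compared with edgeR 4.0.16 (R 4.3.3, robust quasi-likelihood test, no block, Benjamini-Hochberg over all genes, threshold 0.05). The biological coefficient of variation was 15.8%. SE is the log2 fold change over the root of the F statistic. The alternatives tried were upper-quartile factors, library totals, DESeq2 size factors, no filter, a minimum mean of 5 CPM, limma-voom and limma-trend (limma 3.58.1; the latter on log2 of TPM with pseudocounts of 1 and 0.1 and of FPKM with 1), the DESeq2 test (version 1.42.0), a replicate block, and libraries left out.

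The members and the 9 role lists were chosen with earlier results of these data known, so no test over a list is given. Named genes are, among tested members averaging 1 CPM or more, the 10 of smallest p on each side and, in each role, the 2 of highest mean TPM. Other members were named after their values were seen, and 1 gene that the rule names is not reported here. Tested on data simulated from the 3 wild type and 3 knockout-labelled libraries (11943 genes), edgeR recovered 32% of genes changed by a fold of 1.5 and 76% at 2, with 9 false calls, and 0 calls when no gene was changed.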

Additional observations from a re-analysis of the deposited data

How the results depend on the processing

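No member passed the adjusted threshold (0 genes) in any of the 18 alternatives. Of the values compared, 615 values of the 36 named genes kept their direction and side of the threshold and 31 turned, 181 medians stayed within the spread between replicates and 17 did not, and 39 counts stayed within 1.5 times and 15 did not. With library totals 2 members were higher and 12 lower at an unadjusted p under 0.05, with a median of -0.0252; positive members went from 103 to 68, and among the 36 named genes Hsp90ab1 (-0.0341) and Eif2ak1 (-0.0555) turned. On log2(TPM + 1) these were 0, 12 and -0.0713, and on log2(TPM + 0.1) 0, 12 and -0.0751. At both pseudocounts 47 members were positive, and the named genes that turned were Sec31a (-0.0043 and -0.0042), Dad1 (-0.0078 in both), Hspa8 (-0.0214 in both), Ssr4 (-0.0298 and -0.0299), Hsp90b1 (-0.034 in both), Hsp90ab1 (-0.0881 and -0.0883) and Eif2ak1 (-0.0989 and -0.1022). On log2(FPKM + 1) there were 3 higher and 7 lower members (1.4% and 5.88% of all genes), 69 positive members, a median of -0.0218, and turned values for the named Hsp90ab1 (-0.0355) and Eif2ak1 (-0.048). Positive members were 45% of those tested with library totals, 31.1% on both TPM scales and 45.7% on FPKM. The matching shares of all genes were 30.6%, 22.5% and 31.4%. DESeq2 gave 9 higher and 1 lower member at an unadjusted p under 0.05 (2.43% and 1.9% of all genes). Relative to all genes, the oligosaccharyltransferase median was 0.0977 on log2(TPM + 1) and 0.1036 on log2(FPKM + 1), and the cytosolic ubiquitin median was -0.0965 among genes of at least 5 CPM.

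Without wild type replicates 1 and 3 together, which leaves 1 wild type library assumed to vary like the knockout-labelled ones, 8 members were higher at an unadjusted p under 0.05 (1.25% of all genes). The medians less that of all genes were then 0.1643 for oligosaccharyltransferase, 0.1745 for channel genes and -0.0707 for stress sensors. Of the named genes, Sar1b (0.0751), Skp1a (0.011), Vcp (0.0697) and Eif2ak1 (-0.1241) turned. Leaving out 1 library at a time gave 7 to 18 higher members and 0 to 3 lower members. The shares of all genes ran from 1.72% to 3.36% higher and from 1.47% to 3.41% lower. The 18 higher and 3 lower members came without wild type replicate 3 (3.19% and 2.68% of all genes). The highest shares of all genes came without knockout-labelled replicate 1, with 10 higher members and 1 lower. The member median ran from 0.0425 to 0.0986, or 0.0455 to 0.0958 less that of all genes. By role, relative to all genes, the medians ran from 0.0762 to 0.1431 for COPII, 0.003 to 0.1829 for cytosolic chaperones, -0.1008 to 0.0052 for cytosolic ubiquitin genes, 0.0872 to 0.1454 for glycan genes, 0.1326 to 0.1956 for lumenal chaperones, 0.0121 to 0.059 for membrane ubiquitin genes, 0.1207 to 0.1435 for oligosaccharyltransferase, -0.0524 to 0.017 for stress sensors and 0.0635 to 0.1155 for channel genes. Named genes turned without wild type replicate 1 (Hspa8 to -0.0486, Rad23b to 0.0283, Skp1a to 0.0022, Vcp to 0.0559), wild type replicate 2 (Hspa8 to -0.0123, Bax to 0.0573), wild type replicate 3 (Eif2ak1 to -0.0616), knockout-labelled replicate 2 (Bax to 0.055) and knockout-labelled replicate 3 (Skp1a to 0.0036). Their ranges with 1 library left out were Hspa8 -0.0486 to 0.347, Rad23b -0.1957 to 0.0283, Skp1a -0.0697 to 0.0036, Vcp -0.1008 to 0.0559, Bax -0.1184 to 0.0573 and Eif2ak1 -0.0616 to 0.1069. The cause of these shifts was not tested. With the replicate number as a block 18 members were higher and 3 lower at an unadjusted p under 0.05 (4.5% and 4.14% of all genes), and 34 genes but 0 members passed the adjusted threshold. Same-numbered libraries had correlations of 0.27, 0.055 and 0.33 between their deviations from the group means, and each library correlated best with its own number, a hint from the data and not from the design. The median SE was 0.11 at 3 libraries a group. In simulated data the adjusted test recovered 32% of genes at a fold of 1.5, the smallest fold tried. Smaller folds were not simulated, and the simulated libraries were drawn independently of each other.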
